A study of Mus musculus with 6 samples.

Results

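The natriuretic peptide system was described in the young mouse heart through 9 genes: the peptides Nppa, Nppb and Nppc, the convertases Corin and Furin, the receptors Npr1, Npr2 and Npr3, and the degrading enzyme neprilysin, Mme. Members were taken by gene symbol, and each of the 9 had 1 probe set among the 20239 named probe sets of the series. The arrays were Affymetrix Mouse Gene 1.0 ST arrays of total RNA from heart ventricles of male mice of the 129/Sv background, aged 3.5 weeks. By genotype label, 3 arrays were Hspa4-/-, which would lack the cytosolic chaperone HSPA4, and 3 were Hspa4+/+ (wild type). The labels name no treatment for either group. Each array was taken as 1 mouse, from the stated number of mice per genotype, and the sources used here do not state how the mutant allele was made. The study's title concerns cardiac damage under pressure overload after loss of HSPA4, and the comparison asks how these genes differ between the genotypes in young ventricles.

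Natriuretic peptides are hormones that the heart releases when its wall is stretched. Atrial natriuretic peptide (ANP, from Nppa) and brain natriuretic peptide (BNP, from Nppb) are made as prohormones, and the membrane protease corin cuts pro-ANP while furin can cut pro-BNP and pro-CNP. The peptides bind receptor guanylyl cyclases that raise cyclic GMP, and they leave the circulation through the clearance receptor NPR3 and through cleavage by neprilysin. In the mouse, ventricular Nppa is high before birth, falls afterwards and returns in stressed ventricles, which made it a widely used marker of cardiac load.

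Nppa and Nppb lie next to each other on chromosome 4 on the same strand, with 0 other genes of the array table between them. Their promoters are shown because both genes had higher values on all 3 arrays labelled Hspa4-/-. The sequences are the RefSeq windows of build GRCm38.p6, plus strand, from 250 bases before to 50 bases after an annotated start: chr4:148000472-148000771 for Nppa and chr4:147985650-147985949 for Nppb. They come from the C57BL/6J reference and not from the strain of these mice. Capitals mark matches to the motifs that were searched for.
Nppa: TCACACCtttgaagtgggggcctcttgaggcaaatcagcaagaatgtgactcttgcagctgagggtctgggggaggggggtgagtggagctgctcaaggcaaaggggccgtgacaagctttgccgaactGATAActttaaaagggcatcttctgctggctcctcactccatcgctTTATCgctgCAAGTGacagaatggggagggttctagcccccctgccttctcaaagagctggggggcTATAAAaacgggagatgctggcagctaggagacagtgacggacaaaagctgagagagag
Nppb: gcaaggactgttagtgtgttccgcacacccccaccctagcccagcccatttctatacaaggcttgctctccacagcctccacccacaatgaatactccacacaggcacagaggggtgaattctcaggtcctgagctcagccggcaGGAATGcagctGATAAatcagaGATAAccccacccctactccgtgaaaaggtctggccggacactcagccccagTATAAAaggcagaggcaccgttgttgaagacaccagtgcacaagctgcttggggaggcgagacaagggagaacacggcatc

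In all, 8 motifs were searched on both strands: GATAA (the core bound by GATA factors), CAAGTG (bound by NKX2-5), GGTGTGA (a T-box element), CATTCC (bound by TEAD factors), GAANNTTC (part of a heat shock element), TATAAA, the CArG box and the MEF2 site. Both windows held GATAA 2 times, which began 121 and 75 bases before the Nppa start and 94 and 83 bases before the Nppb start. Of all 32851 promoter windows of this length, 25.4% held GATAA. The Nppa window also held CAAGTG at 66 bases before the start, found in 13.6% of windows, and GGTGTGA at its upstream edge, found in 3.98%. The Nppb window held CATTCC at 105 bases before the start, found in 14.7% of windows. TATAAA stood in both, against 13.6% of windows. No match overlapped another, and the heat shock letters, the CArG box and the MEF2 site were not in either window. Of the other 7 members, Furin had CAAGTG 2 times and TATAAA in 1 window, Nppc had TATAAA, Mme had CATTCC in 1 window, and the windows of Corin, Npr1, Npr2 and Npr3 held none of the motifs. A match is a description of letters and not a binding site.

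Hspa4 itself read 9.33, 6.63 and 6.75 (log2) in replicates 1, 2 and 3 of the arrays labelled Hspa4-/-, against 9.74, 9.50 and 9.48 in wild type. The Hspa4 level of the array labelled Hspa4-/- replicate 1 is thus near wild type and contradicts the label. Xist, the RNA of the inactive X chromosome in female cells, stood at 7.68 on that array, against 5.51 to 5.69 on the other 5, although all mice are labelled male. Differences between the genotypes are therefore given with all 6 arrays and with the 5 that remain without it. The arrays also differed in the spread of their values: the SD over all probe sets was 1.25 and 1.27 for replicates 2 and 3 labelled Hspa4-/- and 1.25 for wild-type replicate 2, while it was 1.20 on the array labelled Hspa4-/- replicate 1 and 1.23 and 1.19 on wild-type replicates 1 and 3. All values are the deposited log2 values, and their distance from background is unknown.

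With all 6 arrays, 0 of the 9 members passed an adjusted p of 0.05 (limma, Benjamini-Hochberg over 20239 genes), where 0% of all genes did. At an unadjusted p under 0.05 there were 5 members, Nppa, Nppb, Furin, Npr2 and Mme, beside 11.2% of all genes. The 2 groups did not overlap in 4 members, beside 15.1% of all genes: 3 were higher, beside 6.08% of all genes, and 1 was lower, beside 9.07%. With limma's array weights Nppa and Mme passed on 6 arrays (adjusted p = 0.0488 and 0.0451), beside 0.568% of all genes. Without the array labelled Hspa4-/- replicate 1, 2 of 9 members passed, beside 0.44% of all genes: Nppa upward, beside 0.232%, and Mme downward, beside 0.208%. The unadjusted p was under 0.05 for 5 members on these 5 arrays, beside 14.9% of all genes. The groups did not overlap in 5 members, beside 33.3% of all genes: 4 were higher, beside 14.4%, and 1 was lower, beside 18.9%. The median difference over the 9 members was 0.19 with 6 arrays and 0.11 with 5, beside -0.01 and -0.02 over all genes. The members were chosen with earlier results of these data known, so these counts only describe them.

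**Figure D1:**
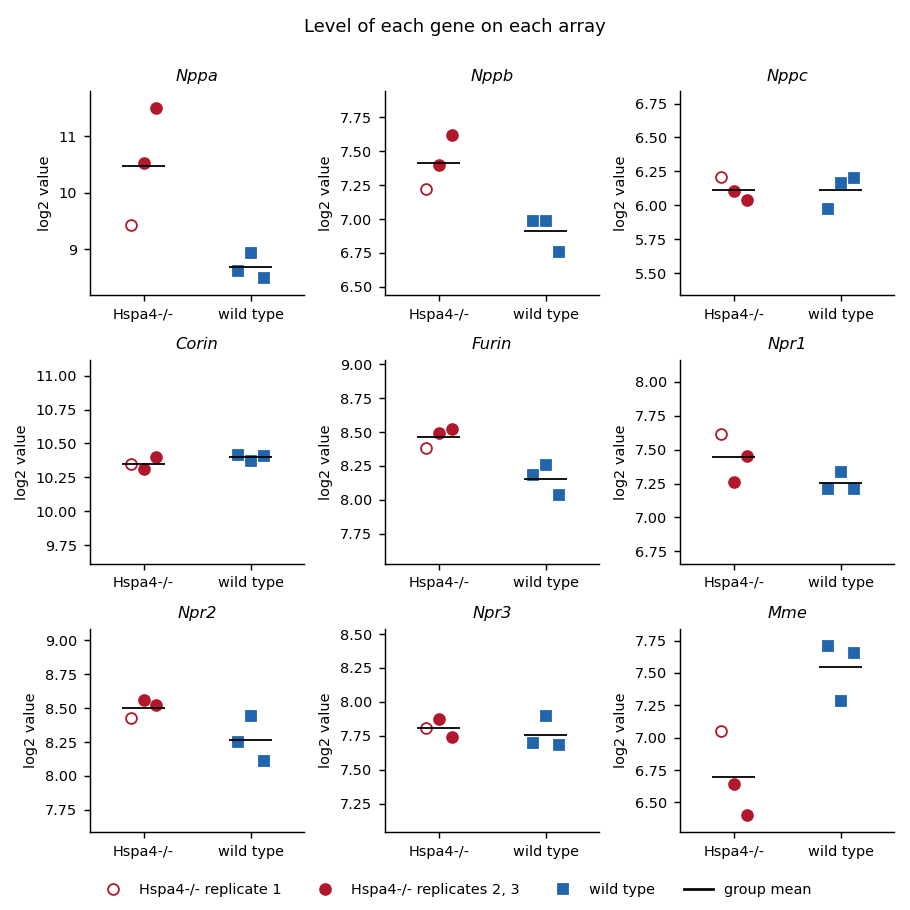
Log2 value (y axis, its own range in each panel) of the 9 genes on each array, arrays labelled Hspa4-/- left and wild type right, with the array labelled Hspa4-/- replicate 1 as an open circle and the group mean over all 3 arrays as a line. Nppa, Nppb and Furin lie above every wild-type array on all 3 arrays labelled Hspa4-/-, Mme lies below, and the other 5 genes overlap between groups.

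Among the peptides, Nppa differed most between genotypes and also within one of them. Replicates 1, 2 and 3 labelled Hspa4-/- had log2 values of 9.43, 10.52 and 11.49, against 8.62, 8.94 and 8.50 in wild type. All 3 arrays labelled Hspa4-/- lay above all wild-type arrays, and they lay farther apart from each other. The mean was 10.48 ± 1.03 on the arrays labelled Hspa4-/- and 8.69 ± 0.23 in wild type (SD, n = 3 each). The log2 difference of Nppa was 1.80 with 6 arrays, with a standard error of 0.40 (limma, adjusted p = 0.213), or 3.47-fold. Nppa rose 4.99-fold on the 5 arrays (log2 difference 2.32, SE 0.24; limma, adjusted p = 0.0127). That call ended without wild-type replicate 1 (2.28; limma, adjusted p = 0.0909) and without wild-type replicate 3 (2.22; limma, adjusted p = 0.144). It also ended with the spread of the array as a term (2.06). On 5 arrays that term sets the arrays labelled Hspa4-/- against wild-type replicate 2 alone, so it is not a check on the full wild-type group.

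Nppb was also higher, by less, and its test fell just short of the threshold on 5 arrays. Its level was 7.22, 7.40 and 7.62 on the arrays labelled Hspa4-/- and 6.98, 6.99 and 6.76 in wild type, again without overlap. The log2 difference was 0.50 (SE 0.11; limma, adjusted p = 0.210), or 1.42-fold, with 6 arrays and 0.60 (SE 0.10; limma, adjusted p = 0.0520), or 1.51-fold, with 5. On 5 arrays it passed in 6 of 13 other settings, among them the filters that left out the lowest 25% and 50% of genes (limma, adjusted p = 0.0358 and 0.0313, beside 1.03% and 1.58% of the genes tested), and its value stayed between 0.49 and 0.71 over the 13.

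The shift of Nppa was set against that of Nppb within each array. Relative to its wild-type mean, the log2 value of Nppa minus that of Nppb was 0.44, 1.35 and 2.09 on the arrays labelled Hspa4-/- and -0.14, 0.18 and -0.04 in wild type. The mean shift was 1.29 larger for Nppa with 6 arrays, and the groups did not overlap (exact two-sided permutation test, p = 0.1, the lowest value possible with 3 arrays a group; p = 0.2 adjusted over the 2 contrasts of this kind). With 5 arrays it was 1.72 larger (exact permutation test, p = 0.1, again the smallest possible). A design of this size cannot reach 0.05 in such a test.

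Nppc, which encodes the C-type peptide that acts locally in vessels and growing bone, gave no difference that these arrays could resolve. It stood at 6.21, 6.10 and 6.04 on the arrays labelled Hspa4-/- and at 5.97, 6.16 and 6.20 in wild type. The ranges overlapped, and the mean value of Nppc lay above those of only 37.1% of all genes. The log2 difference was 0.00 (SE 0.08; limma, adjusted p = 0.997) with 6 arrays and -0.04 (SE 0.09; limma, adjusted p = 0.859) with 5.

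**Figure D2:**
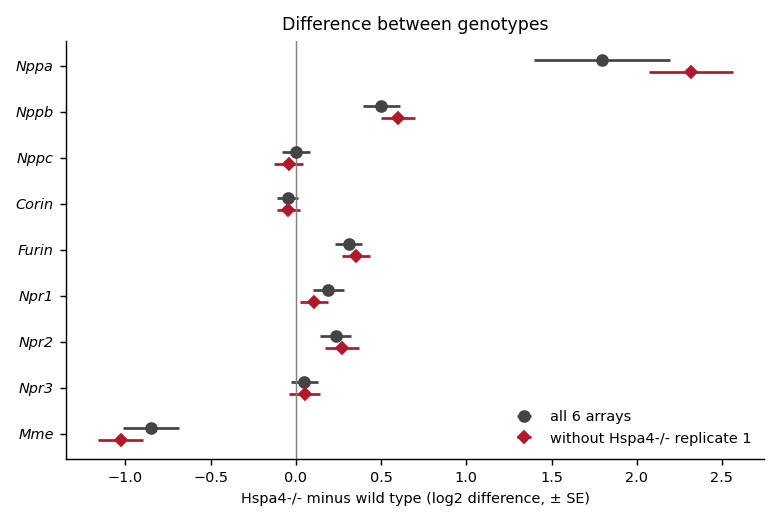
Log2 difference, Hspa4-/- minus wild type (x axis), with limma's standard error for the 9 genes (y axis), from all 6 arrays (circles) and without the array labelled Hspa4-/- replicate 1 (diamonds). Nppa lies farthest to the right at 1.80 and 2.32, Mme lies to the left at -0.85 and -1.03, and Nppc, Corin and Npr3 lie within 0.1 of 0.

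The enzymes that process the prohormones differed from each other. Furin, a convertase of the secretory pathway that cuts many precursors, had log2 values of 8.38, 8.49 and 8.52 on the arrays labelled Hspa4-/- and 8.18, 8.26 and 8.04 in wild type. The groups did not overlap, and the difference was 0.31 (SE 0.08; limma, adjusted p = 0.234), or 1.24-fold, with 6 arrays and 0.35 (SE 0.08; limma, adjusted p = 0.0999), or 1.28-fold, with 5. It passed on 5 arrays only when wild-type replicate 2 was also left out (0.40; limma, adjusted p = 0.0347, beside 4.32% of all genes), among the 13 settings tried. Corin, the membrane protease that makes mature ANP in cardiomyocytes, had 10.35, 10.31 and 10.40 on the arrays labelled Hspa4-/- and 10.42, 10.37 and 10.41 in wild type. Its difference was -0.05 (SE 0.06; limma, adjusted p = 0.852) with 6 arrays and -0.04 (SE 0.07; limma, adjusted p = 0.813) with 5, and it stayed between -0.0857 and -0.00180 over all settings of both comparisons.

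Of the receptors, Npr2 showed the clearest difference, and it did not pass. Npr2 encodes the guanylyl cyclase that prefers C-type peptide. It read 8.42, 8.56 and 8.52 on the arrays labelled Hspa4-/- and 8.25, 8.44 and 8.11 in wild type, where wild-type replicate 2 lay above the lowest array of the other group. The difference was 0.23 (SE 0.09; limma, adjusted p = 0.375) with 6 arrays and 0.27 (SE 0.10; limma, adjusted p = 0.251) with 5. It passed on 5 arrays only without wild-type replicate 2 (0.36; limma, adjusted p = 0.0484, beside 4.32% of all genes).

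Npr1, the guanylyl cyclase that responds to ANP and BNP, read 7.61, 7.26 and 7.45 on the arrays labelled Hspa4-/- and 7.21, 7.34 and 7.21 in wild type. Its highest value came from the array labelled Hspa4-/- replicate 1, whose Hspa4 contradicts the label. The difference was 0.19 (SE 0.09; limma, adjusted p = 0.484) with 6 arrays and 0.11 (SE 0.08; limma, adjusted p = 0.602) with 5. Npr3, the clearance receptor without a cyclase domain, read 7.81, 7.87 and 7.74 on the arrays labelled Hspa4-/- and 7.70, 7.90 and 7.68 in wild type. The groups overlapped fully, with a difference of 0.05 (SE 0.08; limma, adjusted p = 0.880) with 6 arrays and 0.05 (SE 0.09; limma, adjusted p = 0.833) with 5. The shift of Npr3 minus that of Npr1 was -0.14 with 6 arrays (exact two-sided permutation test, p = 0.4) and -0.06 with 5 (exact permutation test, p = 0.8).

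Mme was the 1 member that fell on the 5 arrays. Neprilysin is a membrane zinc metallopeptidase that cleaves ANP, C-type peptide, bradykinin and other small peptides, and it is the target of the heart failure drug sacubitril. Mme read 7.06, 6.64 and 6.40 on the arrays labelled Hspa4-/- and 7.71, 7.28 and 7.65 in wild type. All arrays labelled Hspa4-/- lay below all wild-type arrays, with wild-type replicate 2 the closest to them. The difference was -0.85 (SE 0.16; limma, adjusted p = 0.210), or 1.80-fold lower, with 6 arrays, and it passed without wild-type replicate 2 (-0.98; limma, adjusted p = 0.0458, beside 0.553% of all genes). On 5 arrays Mme fell 2.04-fold (log2 difference -1.03, SE 0.13; limma, adjusted p = 0.0237). That call ended when a further array was left out: the array labelled Hspa4-/- replicate 2 (-1.15; limma, adjusted p = 0.0556), the array labelled Hspa4-/- replicate 3 (-0.91; limma, adjusted p = 0.137), wild-type replicate 1 (-0.95; limma, adjusted p = 0.122) or wild-type replicate 3 (-0.97; limma, adjusted p = 0.195). It also ended with the spread of the array as a term (-0.76), which on 5 arrays compares with wild-type replicate 2 alone.

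Members were also read among the 3 arrays of wider spread, a division made after the values were seen, with 1 wild-type array and no test. There the arrays labelled Hspa4-/- replicates 2 and 3 averaged 11.00 for Nppa against 8.94 on wild-type replicate 2, and 6.52 for Mme against 7.28. The differences were 0.52 for Nppb, 0.25 for Furin, 0.10 for Npr2, 0.02 for Npr1, -0.02 for Corin and -0.09 for both Nppc and Npr3. Among the arrays of narrower spread, the 1 array labelled Hspa4-/- is replicate 1, where Hspa4 itself differed by -0.28 from wild-type replicates 1 and 3, against -2.81 in the wider set, so that set gives no comparison of genotypes.

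The neighbours of the Nppb and Nppa pair showed smaller differences than either peptide gene. Of the 10 nearest genes with a probe set, 5 on each side, 0 passed with 6 arrays, and their differences ran from -0.32 to 0.22. Clcn6, a chloride transporter gene beside Nppa, was at 0.22 with 6 arrays (SE 0.10; limma, adjusted p = 0.457) and 0.23 with 5 (limma, adjusted p = 0.405). On 5 arrays, Fv1, a retroviral restriction gene, fell (-0.43; limma, adjusted p = 0.0490), as 1 of 10 neighbours beside 0.44% of all genes, and the others lay between -0.27 and 0.23. Mfn2, a mitochondrial fusion gene, differed by 0.08 with 6 arrays and 0.13 with 5 (limma, adjusted p = 0.817 and 0.606). Agtrap, which encodes a partner of the angiotensin receptor, differed by 0.13 and 0.11 (limma, adjusted p = 0.759 and 0.770).

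**Figure D3:**
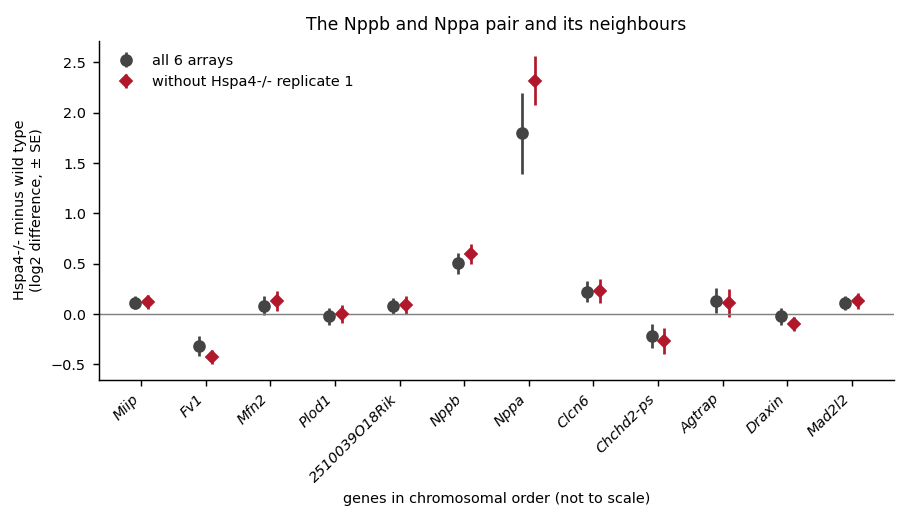
Log2 difference, Hspa4-/- minus wild type (y axis), with limma's standard error for Nppb, Nppa and 5 measured genes on each side in chromosomal order (x axis, not to scale), from all 6 arrays (circles) and without the array labelled Hspa4-/- replicate 1 (diamonds). Nppa and Nppb stand above the 10 neighbours, which lie between -0.43 and 0.23.

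Genes with patterns most like Nppa and Mme were found by the root mean square difference over the 6 arrays after the wild-type mean of each gene was subtracted, with no test. For Nppa they were Kcne1, a potassium channel subunit (0.622), skeletal actin Acta1 (0.716), the myosin light chain Myl9 (0.777), Dpysl3 (0.783) and the LIM-domain gene Fhl1 (0.806). None followed it closely: Nppa stood at 0.75, 1.83 and 2.80 above its wild-type mean on the arrays labelled Hspa4-/-, while Kcne1 stood at 0.12, 1.46 and 1.48. For Mme the values were smaller, led by the uroplakin gene Upk1b (0.0960), Hsph1, a relative of Hspa4 (0.136), the Hsp90 co-chaperone gene Chordc1 (0.176), the angiopoietin gene Angpt1 (0.178) and Lgi1 (0.187). Relative to wild type, Mme was at -0.49, -0.91 and -1.15 and Upk1b at -0.39, -0.85 and -0.96 on the arrays labelled Hspa4-/-. On wild-type replicate 2 they stood at -0.27 and -0.28. The measure is not scaled to the size of a gene's shift, which was smaller for Mme than for Nppa. All of these values come from the same 6 arrays.

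**Figure D4:**
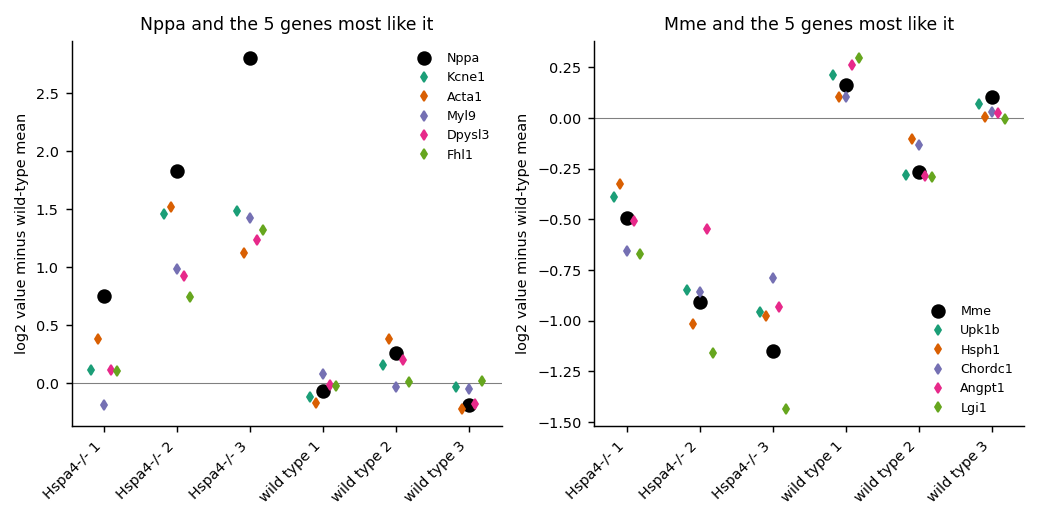
Log2 value minus the wild-type mean (y axis) on each of the 6 arrays (x axis) for Nppa (left) and Mme (right) as black circles and for the 5 genes most like each as coloured diamonds. Nppa reaches 2.80 on the array labelled Hspa4-/- replicate 3, above its 5 nearest genes. The genes around Mme lie nearer to it but not on it: on that array Chordc1 is at -0.79 and Lgi1 at -1.43 against -1.15 for Mme.

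Other genes of the pathway were read from 6 lists. The list of transcription factors known at the Nppa or Nppb promoter also held the histone deacetylase genes Hdac4, Hdac5 and Hdac9. On it Gata6, which encodes a GATA factor of the heart, rose on 5 arrays (0.63; limma, adjusted p = 0.0402). This was 1 of 26 measured genes, 1 higher and 0 lower, beside 0.44% of all genes called and 0.232% called higher. The level of Gata6 was 9.30, 9.64 and 9.62 on the arrays labelled Hspa4-/- and 8.91, 9.20 and 8.91 in wild type, and the groups did not overlap. With 6 arrays the difference was 0.52 (SE 0.11; limma, adjusted p = 0.210), and 0 of the 26 passed. On 5 arrays the call ended without either remaining array labelled Hspa4-/-, without wild-type replicate 1 or 3, with array medians subtracted and with the spread of the array as a term (limma, adjusted p from 0.0698 to 0.228; values from 0.44 to 0.64). With that last term, wild-type replicate 2 alone was compared. The median of the 26 differences was 0.16 with 6 arrays and 0.17 with 5, beside -0.01 and -0.02 over all genes. With 6 arrays 7 of the 26 were higher without overlap, beside 6.08% of all genes, and 2 were lower, beside 9.07%.

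Downstream of the receptors, 0 of 18 measured cyclic GMP targets and breakdown genes passed in either comparison, with medians of 0.00 and 0.01. With 6 arrays the smallest p belonged to Pde2a, a phosphodiesterase that cyclic GMP activates, at 0.26 (SE 0.06; limma, adjusted p = 0.227), and 0.25 with 5 (limma, adjusted p = 0.158). Next came Abcc4, an exporter of cyclic nucleotides, at -0.20 (SE 0.07; limma, adjusted p = 0.308), and -0.18 with 5 (limma, adjusted p = 0.288). On 5 arrays Pde3a and Prkg1, named after their values were seen, had the smallest p. They were at 0.39 and 0.27 there (limma, adjusted p = 0.108 and 0.148), against 0.27 and 0.11 with 6 arrays (limma, adjusted p = 0.433 and 0.815). In the nitric oxide branch, the other source of cyclic GMP, 0 of 11 passed in either comparison, with medians of 0.05 and 0.06. With 6 arrays the smallest p there belonged to the endothelial synthase gene Nos3, at 0.36 (SE 0.09; limma, adjusted p = 0.234), and to Nos2, at 0.13 (SE 0.08; limma, adjusted p = 0.595). With 5 arrays Nos3 was at 0.39 and Nos2 at 0.11 (limma, adjusted p = 0.139 and 0.596). There Ddah1, which degrades an inhibitor of nitric oxide synthases and is named after its values were seen, had the second smallest p, at 0.34 (limma, adjusted p = 0.169), against 0.13 with 6 arrays (limma, adjusted p = 0.829). Nos3 read 7.06, 6.96 and 7.31 on the arrays labelled Hspa4-/- and 6.75, 6.79 and 6.69 in wild type.

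On the list of other proprotein convertases, 0 of 8 measured genes passed in either comparison (medians 0.03 and 0.01). The list includes Pcsk1n and Serpina1a, which do not encode convertases. Mbtps1 was at 0.11 with 6 arrays and 0.22 with 5 (limma, adjusted p = 0.754 and 0.279). On 5 arrays it was higher without overlap, as 1 of 8 beside 14.4% of all genes. Pcsk6, which activates corin, was at 0.07 in both (limma, adjusted p = 0.880 and 0.835). Among other peptidases of natriuretic or vasoactive peptides, 0 of 10 passed (medians -0.04 and -0.03). With 6 arrays, those with the smallest p were the dipeptidyl peptidase gene Dpp4, at -0.27 (SE 0.07; limma, adjusted p = 0.234), and the aminopeptidase A gene Enpep, at -0.21 (SE 0.06; limma, adjusted p = 0.276). Both lay below wild type on all 3 arrays labelled Hspa4-/-, as 2 of 10 beside 9.07% of all genes. With 5 arrays Dpp4 was at -0.31 and Enpep at -0.23 (limma, adjusted p = 0.0968 and 0.177). Of 10 other membrane serine proteases and guanylyl cyclase receptors, 0 passed (medians -0.07 and -0.10), with Gucy2e at -0.12 and Gucy2g at -0.09 with 6 arrays (limma, adjusted p = 0.562 and 0.745). With 5 arrays Gucy2e was at -0.11 and Gucy2g at -0.17 (limma, adjusted p = 0.520 and 0.307). Both were among 7 of the 10 that were lower without overlap on 5 arrays, beside 18.9% of all genes, while 1 was higher, beside 14.4%. With 6 arrays 2 were lower without overlap, Gucy2e among them, beside 9.07%, and 1 was higher, beside 6.08%. The mean values of Gucy2e and Gucy2g were low, above those of 27.5% and 23.6% of all genes.

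**Figure D5:**
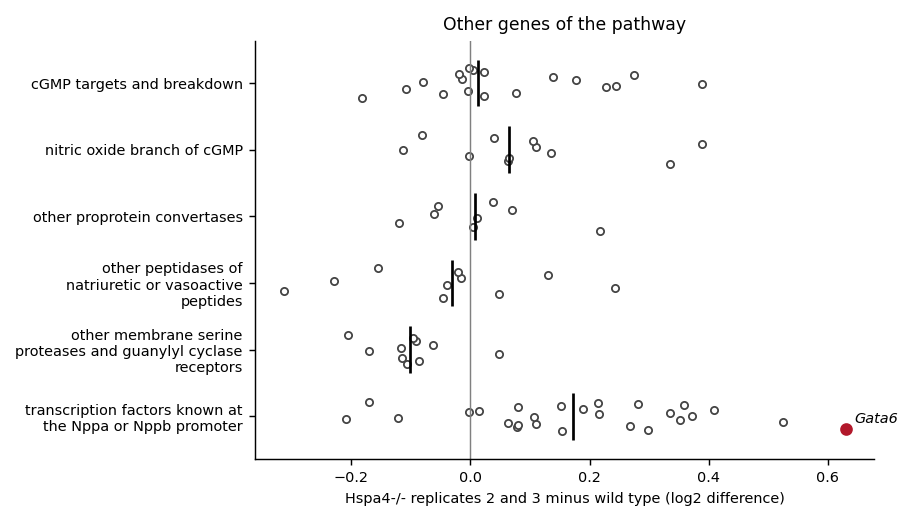
Log2 difference between the arrays labelled Hspa4-/- replicates 2 and 3 and wild type (x axis) for each measured gene of 6 lists (y axis), with list medians as vertical bars and genes past an adjusted p of 0.05 filled. Gata6 at 0.63 is the 1 filled point, and list medians run from -0.10 to 0.17.

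Marker genes were read beside these results. In whole ventricle RNA, fewer cells of a type and less RNA per cell cannot be told apart. Over the 12 marker lists, 0 genes passed with 6 arrays, and list medians ran from -0.15 to 0.14. The 11 atrial markers, which bear on Nppa because atria make much of it, had summed linear levels of 1458 to 1526 on the arrays labelled Hspa4-/- and 1356 to 1549 in wild type, so the ranges overlapped. The sum weighs genes of high value most, such as Kcnj3 (mean log2 value 7.94) over Sln (5.82). Of the 11, 7 had higher means on the arrays labelled Hspa4-/- in both comparisons, and the list median was 0.02 in both. The part of atrial tissue in the values of Nppa was not tested. The atrial light chain genes Myl4 and Myl7 differed by 0.23 and 0.15 with 6 arrays (limma, adjusted p = 0.648 and 0.578) and by 0.28 and 0.19 with 5 (limma, adjusted p = 0.500 and 0.399). Sln and Bmp10 differed by 0.03 and -0.06 with 6 arrays (limma, adjusted p = 0.937 and 0.817) and by 0.02 and -0.09 with 5 (limma, adjusted p = 0.949 and 0.623). Their mean values were low, above those of 24.1% and 10.1% of all genes, so these 2 genes say little here. The channel gene Kcnj3 fell on 5 arrays (-0.55; limma, adjusted p = 0.0310), as 1 of the 11 beside 0.208% of all genes called lower. On 6 arrays Kcnj3 was at -0.38 (limma, adjusted p = 0.323). Its partner Kcnj5 differed by 0.29 with 6 arrays and 0.40 with 5 (limma, adjusted p = 0.349 and 0.0908). The 10 ventricular markers summed to 48724 to 50201 on the arrays labelled Hspa4-/- and 46563 to 48906 in wild type, so the ranges overlapped. Of the 10, 9 had higher means on the arrays labelled Hspa4-/- in both comparisons, with list medians of 0.07 and 0.06. The part of the ventricular markers in the values of Nppa and Nppb was not tested. The ventricular light chain gene Myl2 read 11.49 to 11.74 on the arrays labelled Hspa4-/- and 11.30 to 11.40 in wild type. Its difference was 0.28 with 6 arrays and 0.35 with 5 (limma, adjusted p = 0.256 and 0.0780). The ventricular factor gene Irx4 differed by 0.57 with 6 arrays and 0.72 with 5 (limma, adjusted p = 0.289 and 0.115). Atp2a2 went the other way, at -0.03 and -0.05 (limma, adjusted p = 0.928 and 0.767). Myl4, Myl7, Sln, Bmp10 and Atp2a2 here, and Kdr and the mesothelial genes below other than Upk1b and Upk3b, were named after their values were seen.

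The summed mesothelial and epicardial markers were mostly lower where Mme was lower. The summed linear level of the 7 genes was 643, 523 and 537 on the arrays labelled Hspa4-/- and 699, 641 and 712 in wild type, so that wild-type replicate 2 lay just below the array labelled Hspa4-/- replicate 1. On 5 arrays Upk3b (-0.78; limma, adjusted p = 0.0173) and Upk1b (-0.90; limma, adjusted p = 0.0330) fell, as 2 of 7 beside 0.208% of all genes called lower. With 6 arrays Upk3b and Upk1b were at -0.56 and -0.73 (limma, adjusted p = 0.269 and 0.210). All 7 genes had lower means on the arrays labelled Hspa4-/- in both comparisons, with a list median of -0.15 with 6 arrays and -0.22 with 5. Lrrn4 was at -0.31 with 6 arrays, where the groups did not overlap, and -0.35 with 5 (limma, adjusted p = 0.227 and 0.0964). With 6 arrays 2 of the 7 were lower without overlap, beside 9.07% of all genes, and with 5 arrays 5 were, beside 18.9%. On 5 arrays Krt19 was at -0.22, Wt1 at -0.14, Krt8 at -0.12 and Msln at -0.11 (limma, adjusted p = 0.339, 0.459, 0.610 and 0.574). Their part in the lower Mme was not tested. The 11 endothelial and endocardial markers, cells that carry Npr1, Npr3 and Nos3, summed to 3748 to 4305 on the arrays labelled Hspa4-/- and 3633 to 3771 in wild type, so the ranges overlapped. Of the 11, 9 had higher means on the arrays labelled Hspa4-/- in both comparisons, and the list median was 0.14 in both. Kdr went the other way, at -0.16 in both (limma, adjusted p = 0.784 and 0.744). The largest differences with 6 arrays were those of Egfl7 at 0.33 and Vwf at 0.24 (limma, adjusted p = 0.210 and 0.298). With 5 arrays these 2 genes were at 0.27 and 0.23 (limma, adjusted p = 0.118 and 0.274). The part of the endothelial and endocardial markers in the values of the receptor genes and Nos3 was not tested. Values on an array are never 0, so the absence of a cell type cannot be read from them.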

How the data were processed

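Per the labels' protocols, Trizol RNA was labelled with biotin (Affymetrix WT Target Labeling Kit). The authors deposited log2 values, 1 per probe set and array. The submitters' processing notes name R 2.13.0 and affy. How background was corrected and arrays were normalised, and the build, are not given in the sources used. Probe sets were named through the platform annotation. Of 21225 probe sets, 20239 carried 1 symbol, 0 several and 986 none. All 20239 gene numbers matched the RefSeq table. Groups were compared with limma 3.58.1 (lmFit, eBayes; R 4.3.3) on the deposited values without a filter, Benjamini-Hochberg adjusted over all named genes at 0.05. The fit was tested on simulated data. Alternatives were low-value filters at 25% and 50%, quantile normalisation, subtracted medians, array weights, trend with robust variance, a replicate block, each array left out, and array spread as a term, added after seeing the data. Filters kept 9 and 8 of the 9 members. The named genes were all members and Hspa4, of each pathway list those past the threshold or the 2 with the smallest p, of each marker list described the 2 with the largest differences, the 5 genes most alike, and neighbours. The members and lists were chosen with earlier results of these data known.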

Additional observations from a re-analysis of the deposited data

How the results depend on the processing

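With all 6 arrays, 0 genes and 0 members passed (limma; 2261 genes at an unadjusted p under 0.05). Array weights gave 115 genes and 2 members, Nppa and Mme. Both low-value filters, the replicate block and the spread of the array as a term each gave 2 genes, and leaving out 1 array gave 0 to 112 genes and 0 to 2 members. With 5 arrays, 89 genes and 2 members passed. Subtracted medians gave 36 genes, array weights 321, the filters at 25% and 50% 157 and 160, the replicate block 134, and the spread of the array 7 genes and 0 members. Leaving out 1 further array gave 2 to 875 genes and 0 to 5 members, the highest without wild-type replicate 2 and the lowest gene count without wild-type replicate 3. Where 1 array labelled Hspa4-/- remained, it was assumed to vary like wild type. Same-numbered arrays had correlations of -0.17, 0.09 and -0.25 in their deviations from the group means. One group mean includes the array labelled Hspa4-/- replicate 1, so these values cannot decide whether the numbers pair arrays. The replicate block on 5 arrays moved Nppb past the threshold (0.63; limma, adjusted p = 0.0395). Among the members and other named results, directions turned for Nppc, Npr3 and Pcsk6. With 6 arrays Nppc reached -0.00133 with subtracted medians, and lay between -0.0678 and 0.0481 when 1 array was left out. On 5 arrays it lay between -0.113 and 0.00281 when a further array was left out. Npr3 on 5 arrays reached -0.00785 with quantile normalisation and -0.0872 with the spread of the array, and lay between -0.0132 and 0.120 when an array was left out. Pcsk6 lay between -0.0368 and 0.170 on 6 arrays and between -0.137 and 0.276 on 5 when an array was left out, and reached -0.0356 on 5 with the spread of the array. The causes were not tested. The differences between Nppa and Nppb and between Npr3 and Npr1 kept their sign in all settings tried. Subtracted medians and the replicate block could not change these 2 differences, by construction, and the spread of the array was not tried for them. The number of arrays limits precision, and signal over background is unknown.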
